A study of Mus musculus with 18 samples.

Results

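Tumours were compared with non-tumour intestine of mice that had all received azoxymethane (AOM) and eaten the control diet. AOM is a carcinogen used in rodents to induce tumours of the large bowel. The 6 arrays of this comparison, 3 of tumours and 3 of non-tumour tissue, were chosen by their labels and are 6 of the 18 arrays of the study. All mice were male C57BL/6 animals, with no genetic change named in the labels. The other groups, with 3 arrays each, were non-tumour intestine of saline-injected mice on the control diet, and saline, AOM non-tumour and AOM tumour samples of mice whose chow held the herb St. John's wort, abbreviated SJW. The saline group on the control diet is given here for its levels alone, and the SJW tumours and SJW non-tumour tissue after AOM are set beside the control diet at the end. Ages, doses and times were not stated in the labels. The series design calls the arrays of a group biological replicates, without saying whether a tumour and a non-tumour sample came from 1 animal.

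Each array carried the RNA of 1 sample labelled with Cy5 (red) and a commercial RNA pool of Swiss Webster mice labelled with Cy3 (green), which held no intestine. Levels are log2 ratios of sample to pool, so 0 means the level of the pool, and are given in the order of replicates 1, 2 and 3. Changes are the tumour mean minus the non-tumour mean on that scale ± SE, with 3 arrays in each group. A gene was called when limma's test, fitted to all 18 arrays and adjusted by Benjamini-Hochberg over 26073 genes, gave an adjusted p under 0.05. The number of arrays limits the precision.

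The non-tumour arrays came from slides 1 to 3, scanned on 1 day, and the tumour arrays from slides 4 and 5, scanned on another, so tumour and scan day cannot be told apart. The non-tumour arrays had a median red intensity of 137.5 to 257 and tumour arrays one of 359 to 786.5. In red, probes well above background made up 66.02% to 81.71% on the former and 80.47% to 91.77% on the latter. The same pool was on every array, and its channel alone, put through the same test, gave 1418 genes higher (5.44%) and 916 lower (3.51%) on the tumour arrays, with a median absolute change of 0.181 against 0.363 in the red channel. Non-tumour array 2 and tumour array 3 stood apart by a bright reference, with a median green intensity of 593 and 755 against 243 to 292 on the other 4 arrays. Without the 6 arrays of the study that share this brightness, 1906 genes were higher and 4013 lower. Across all genes, arrays of 1 group correlated at 0.93 to 0.955 and arrays of different groups at 0.774 to 0.846.

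The labels call the tissue small intestine and the extraction protocol names liver. In the non-tumour samples the colonocyte carbonic anhydrase gene Car1 stood at 7.57, 7.74 and 7.01, and the chloride exchanger gene Slc26a3 at 6.09, 6.32 and 5.56, far above the pool. The small intestinal disaccharidase genes Sis and Lct stood near the pool, at 0.71, 0.41 and 0.93 and 0.91, -0.24 and -0.23, as did the ileal bile acid binding protein gene Fabp6 at 0.42, 0.97 and 1.23, which was well above background on 2 of the 3 arrays. The liver genes Alb and Cyp2e1 stood below the pool, at -2.52, -3.75 and -2.46 and -2.24, -2.59 and -2.46. Fabp2, a fatty acid binding protein gene of small intestinal enterocytes that colonocytes also express, stood at 4.97, 4.19 and 4.65, and 10 genes of Paneth cells, a cell type of the small intestine, averaged 1.58, 2.24 and 1.25. Small intestinal markers thus ranged from near the pool to well above it, and the samples are called intestine here.

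Epithelial cells of the intestine are renewed from crypts, where Wnt ligands keep beta-catenin stable and let it act with TCF and LEF factors on the genes of stem and progenitor cells. Many of these target genes encode inhibitors of the pathway itself, a negative feedback. As cells leave the crypt, Wnt signalling falls, BMP signalling rises and factors such as Cdx2, Hnf4a, Klf4 and Atoh1 turn on the genes of absorptive, mucus-secreting and hormone-secreting cells. Tumours induced by AOM in rodents often carry mutations that stabilise beta-catenin.

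In tumours, genes of Wnt feedback, metalloproteases, collagens and matricellular proteins and cytokines were called higher more often than all genes, and genes of water and ion transport, mucus, gut hormones, drug metabolism, fatty acid oxidation and the respiratory chain were called lower more often. These lists were written with earlier results of these data known, so their shares are a description and not a test. Of the 26073 genes, 3313 (12.7%) were higher and 5020 (19.3%) lower. The median change was 0.638 among the genes called higher and -0.846 among those called lower. At least 2-fold changes were found for 524 and 1851 of them, and at least 8-fold changes for 7 and 78. Tumour arrays lay all above the non-tumour arrays for 4705 genes (18%) and all below for 6424 (24.6%), and did so for 93.15% and 95.04% of the genes called higher and lower. The split into higher and lower depended on the scaling: median centring in place of loess gave 3777 and 1854, the red channel alone 3739 and 3910, the log ratio of Agilent's scanner software (Agilent's log ratio) 4848 and 3246, and the deposited log2 values 3854 and 2646. Those scalings moved the median change of all genes from -0.0545 to 0.112, 0.000556, 0.146 and 0.147 in that order, so changes of that size have no settled direction. List medians could move further. Median centring took that of the complement list from 0.268 to 0.786, and Agilent's log ratio that of the fibroblast list from -0.0795 to 0.517. Larger changes can thus also lack a settled size or direction.

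**Figure D1:**
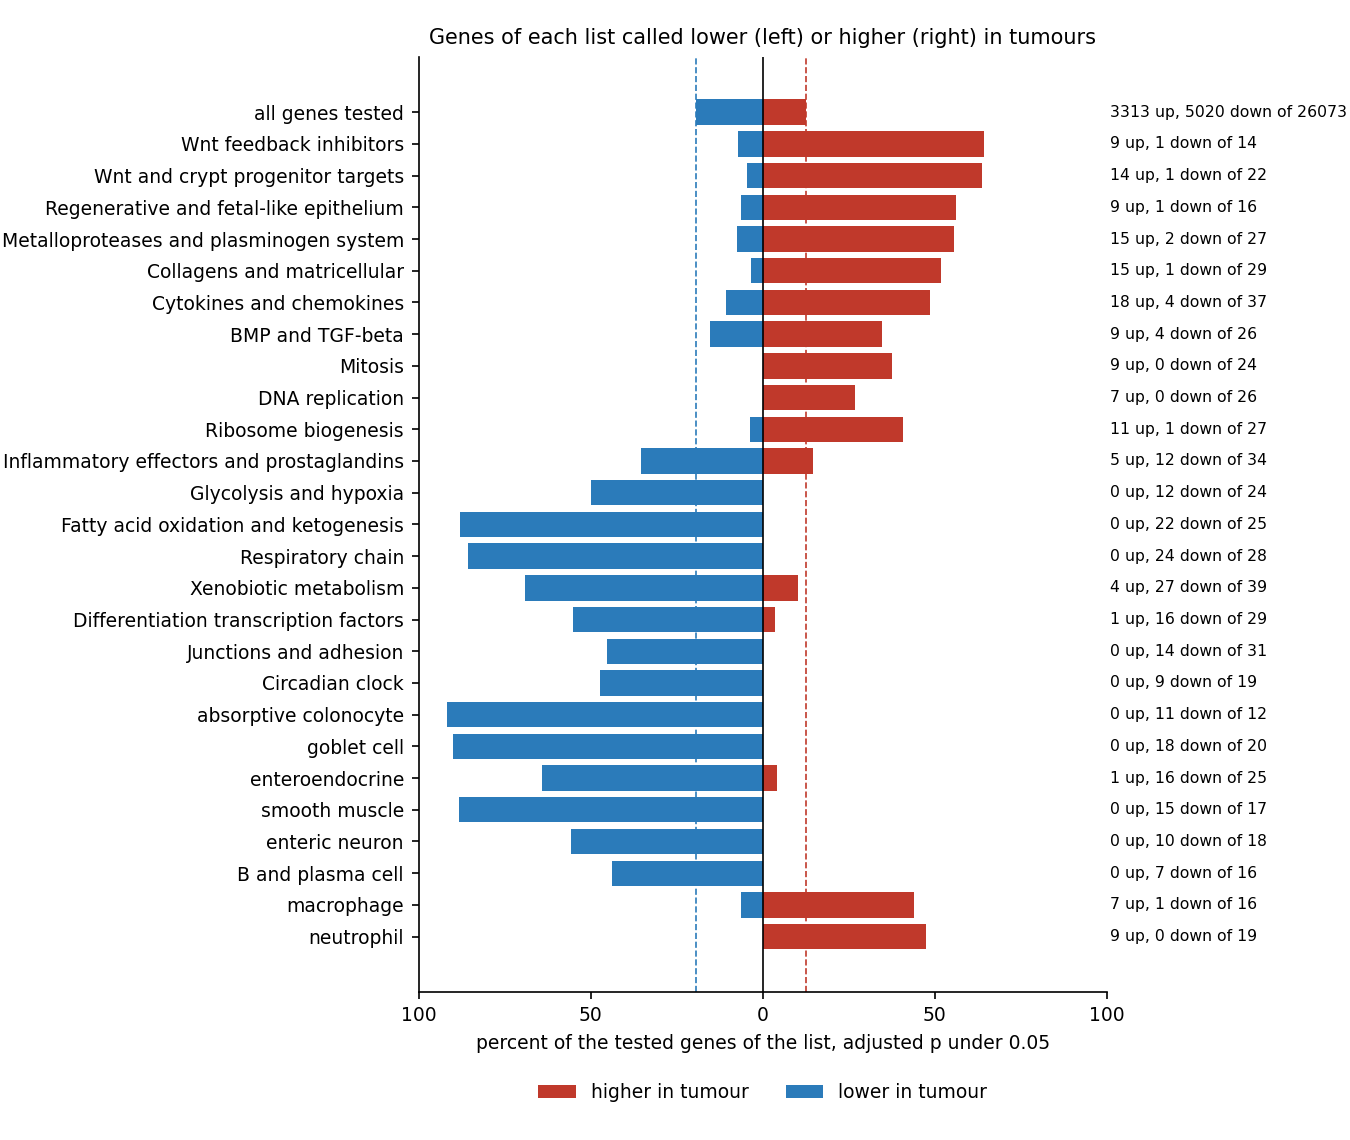
Share of the tested genes of each list called higher (right, red) or lower (left, blue) in tumours against non-tumour tissue, in percent, with the counts at the right. Dashed lines mark the shares over all 26073 genes, 12.7% higher and 19.3% lower, and the Wnt feedback list reaches 9 of 14 higher while the goblet cell list reaches 18 of 20 lower.

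Feedback inhibitors of the Wnt pathway, secreted, on the membrane or inside the cell, were higher in tumours, with 9 of 14 measured members called higher (12.7% of all genes), 1 called lower and a median change of 1.44 (-0.0545 over all genes). Axin2, the scaffold of the complex that degrades beta-catenin, stood at 1.04, 2.02 and 1.14 in non-tumour tissue and 2.86, 3.25 and 3.41 in tumours. All tumour arrays lay above all non-tumour arrays, and the change was 1.77 ± 0.28 (3.42-fold, adjusted p = 0.000254). Notum, a secreted enzyme that inactivates Wnt proteins, stood at 0.35, 2.18 and 0.60 in non-tumour tissue and 3.13, 3.56 and 3.89 in tumours, again with no overlap, and rose by 2.48 ± 0.38 (adjusted p = 0.000208). Wif1, which binds Wnt proteins outside the cell, was at 2.01, 4.12 and 2.14 in non-tumour tissue and 5.48, 5.82 and 5.83 in tumours. Its non-tumour array 2 came nearest to the tumours, and the change was 2.95 ± 0.58 (7.73-fold, adjusted p = 0.00129). Nkd1, an inhibitor that acts on Dishevelled inside the cell, stood at 0.61, 1.51 and 0.22 in non-tumour tissue and 2.62, 3.26 and 2.54 in tumours and rose by 2.03 ± 0.29 (adjusted p = 0.000112). Znrf3, a ligase that removes Frizzled receptors, and Apcdd1, a membrane inhibitor, rose by 1.60 ± 0.27 and 2.28 ± 0.37, both well above background on 2 of 3 non-tumour arrays. Tnfrsf19, a receptor of crypt cells named here for its promoter, rose by 0.89 ± 0.18 (adjusted p = 0.00165). Sfrp1, a secreted Frizzled-related inhibitor, was the member called lower, at -1.18 ± 0.35 (adjusted p = 0.0178); its adjusted p was 0.0504 to 0.0911 without non-tumour array 1 or 2 or tumour array 3, and 0.148 with median centring.

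Non-tumour array 2 was the highest of the 3 non-tumour arrays in 8 of those 9 genes, as it was in 44.16% of all genes called higher. Without it the list's median was 1.88, and with spots the scanner marked as non-uniform left out 4 of the 10 members tested were called higher. The reference channel of Axin2 and Wif1 was itself called higher, by 0.99 and 0.78, and their red channel alone changed by 2.92 and 4.01, more than the ratio did. On the saline arrays of the same scan day, Axin2 averaged 0.42, Notum -0.29, Wif1 -0.06 and Nkd1 -1.19, all below their non-tumour means after AOM; that difference was not tested here.

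**Figure D2:**
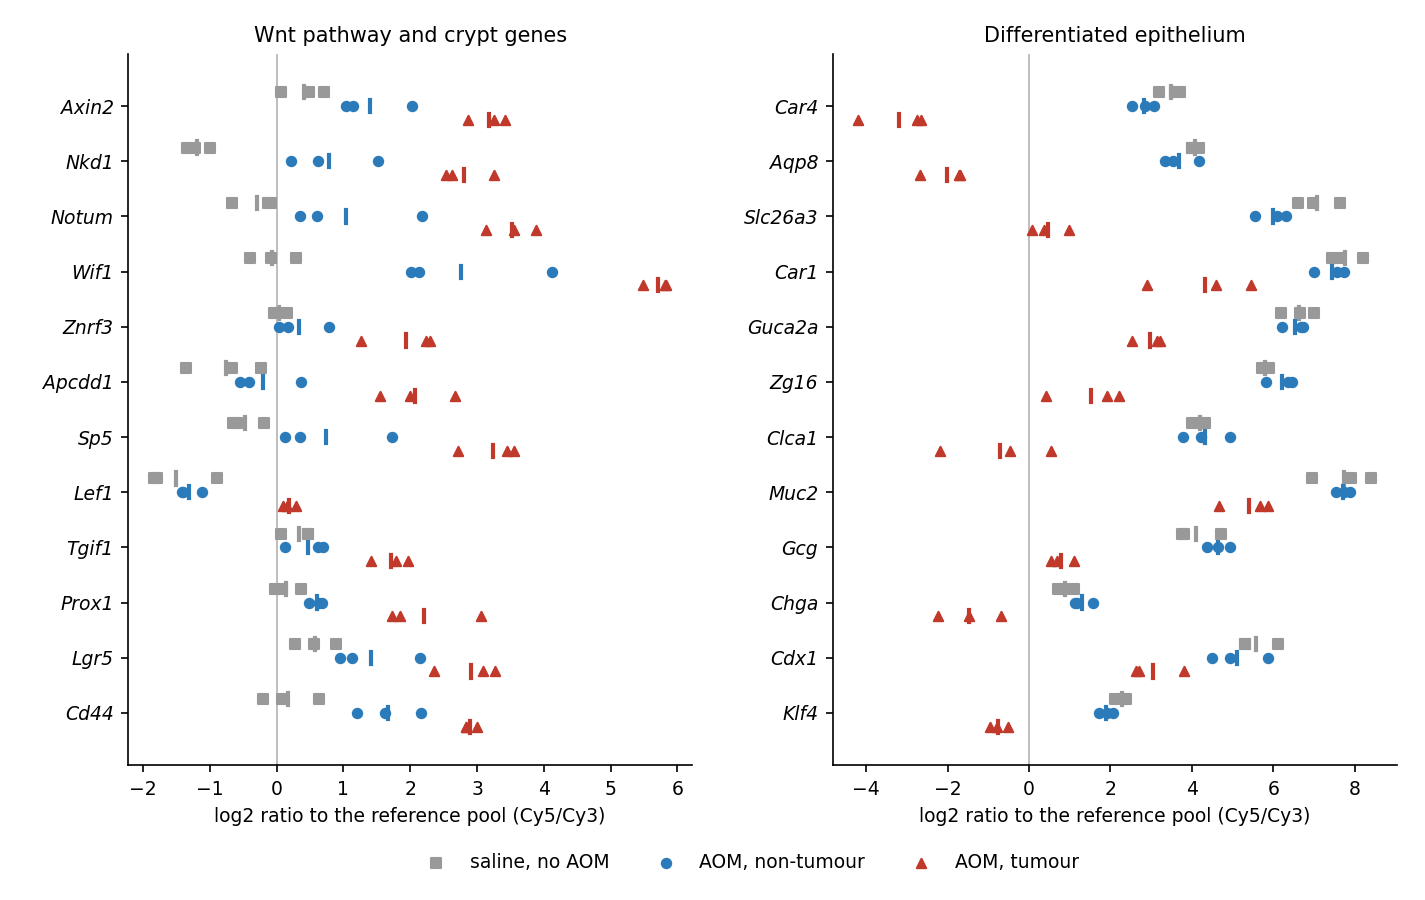
Log2 ratio to the reference pool on each array for 12 Wnt pathway and crypt genes and 12 genes of differentiated epithelium; squares are saline, circles non-tumour tissue after AOM, triangles tumours, all on the control diet, and short bars are group means. Tumour triangles of Sp5, Notum and Axin2 lie right of every circle, and those of Car4, Aqp8 and Slc26a3 lie left of every circle.

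Beta-catenin acts through TCF and LEF factors, whose sites hold the letters CTTTGAT or, on the other strand, ATCAAAG. These letters were searched on both strands in the RefSeq promoters of build GRCm38.p6, taken as 250 bases before to 50 bases after a gene's start. They were found in 1160 of 27025 promoters (4.29%), in 479 of the 13357 tested genes with a promoter sequence (3.59%), and in 3 of the 14 genes with one among the 23 members called higher in the Wnt feedback and Wnt target lists. The stretches around the match, in the direction of transcription with the match in capitals, are shown for these 3 since they are the members whose promoters carry the letters. A match is a description of the letters and says nothing about binding.
Sp5 (chr2:70474769-70474875, + strand): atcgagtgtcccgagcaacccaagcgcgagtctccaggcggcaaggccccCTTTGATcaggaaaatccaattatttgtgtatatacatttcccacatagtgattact
Tgif1 (chr17:70846872-70846978, - strand): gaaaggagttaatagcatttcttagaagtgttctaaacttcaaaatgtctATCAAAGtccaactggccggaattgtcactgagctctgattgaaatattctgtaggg
Tnfrsf19 (chr14:61038133-61038237, - strand): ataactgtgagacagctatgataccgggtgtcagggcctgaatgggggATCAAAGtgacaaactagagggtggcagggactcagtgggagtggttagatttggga
The match begins 104 bases before the start of Sp5, 151 before that of Tgif1 and 202 before that of Tnfrsf19.

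Targets of Wnt signalling and genes of crypt progenitors were higher, with 14 of 22 called higher, 1 lower and a median of 0.74. Sp5, a transcription factor and direct target, stood at 0.35, 1.73 and 0.12 in non-tumour tissue and 2.71, 3.45 and 3.56 in tumours. The groups did not overlap and Sp5 rose by 2.51 ± 0.32 (5.68-fold, adjusted p = 4.18e-05). Lef1, itself a partner of beta-catenin, went from levels of -1.11, -1.40 and -1.42 to 0.15, 0.10 and 0.30, a change of 1.49 ± 0.28 (adjusted p = 0.000999). Tgif1, a homeobox repressor, rose by 1.24 ± 0.20 (adjusted p = 0.000247). The homeobox gene Prox1 stood at 0.48, 0.63 and 0.68 in non-tumour tissue and 1.84, 1.73 and 3.06 in tumours, with tumour 3 the highest, and the adhesion receptor gene Cd44 at 1.21, 2.16 and 1.62 in non-tumour tissue and 2.83, 3.01 and 2.83 in tumours; both groups stayed apart, and the changes were 1.61 ± 0.33 and 1.23 ± 0.31 (adjusted p = 0.0016 and adjusted p = 0.00726).

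Lgr5, the R-spondin receptor that marks crypt stem cells, stood at 1.12, 2.15 and 0.94 in non-tumour tissue and 2.35, 3.09 and 3.28 in tumours. Non-tumour array 2 came close to the lowest tumour, and the change was 1.50 ± 0.36 (adjusted p = 0.0055); with non-uniform spots left out it was 0.95 with an adjusted p of 0.155. The growth regulator gene Myc was at 0.19, 0.68 and 0.06 in non-tumour tissue and 1.01, 0.97 and 2.24 in tumours, with tumour 3 well above the others, and changed by 1.10 ± 0.27 (adjusted p = 0.00549), or with an adjusted p of 0.0601 in a fit of the 6 arrays alone. Lrig1 ran the other way. This membrane protein, which restrains ErbB receptors and marks crypt stem cells, fell from 1.58, 1.37 and 1.31 to -0.59, 0.00 and -0.84, a change of -1.90 ± 0.19 (3.73-fold lower, adjusted p = 5.3e-06). Of the 22 members, 9 were called higher in the fit of 6 arrays, and 5 of 16 with non-uniform spots left out.

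Of 20 ligands and receptors of the Wnt pathway 5 were higher and 3 lower (25% and 15%, against 12.7% and 19.3% of all genes). Wnt5a, a ligand that acts mostly without beta-catenin, stood at -0.96, -0.87 and -0.05 in non-tumour tissue and 1.82, 1.47 and 1.94 in tumours, with no overlap, and rose by 2.37 ± 0.25 (5.18-fold, adjusted p = 7.38e-06); it was well above background on 2 of 3 non-tumour arrays. Rspo1, whose protein strengthens Wnt signalling through the Lgr receptors, fell from -0.69, -0.86 and -0.81 to -1.72, -2.10 and -2.42 (-1.29 ± 0.21, adjusted p = 0.000285). Counts of members called higher dropped to 3 without non-tumour array 1 or 3 or tumour array 1 or 3, and to 2 without the arrays of bright reference.

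Genes that the injured epithelium and the fetal gut express were higher in 9 of 16 members, lower in 1, with a median of 0.733. Basp1, a membrane-bound signalling protein gene, stood at -1.28, -1.55 and -0.88 in non-tumour tissue and 0.20, 0.20 and 0.00 in tumours and rose by 1.37 ± 0.20 (adjusted p = 0.000117). Il33, which encodes an alarm cytokine, and the keratin gene Krt7 rose by 1.22 ± 0.29 and 0.78 ± 0.18 (adjusted p = 0.00447 and adjusted p = 0.00418). Sprr1a, a cornified envelope gene, was the member called lower and stood at 1.48, 1.84 and 1.50 in non-tumour tissue and 0.76, -0.41 and 0.78 in tumours (-1.23 ± 0.30, adjusted p = 0.00608). The count of members called higher was 5 without non-tumour array 3, 5 of 10 in the deposited log2 values, and 3 of 11 with non-uniform spots left out.

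Among 14 ligands, receptors and regulators of the EGF family 2 were higher and 6 lower. These are 14.3% and 42.9%, against 12.7% and 19.3% of all genes. Nrg1, the ligand neuregulin, stood at 0.14, 0.39 and 0.26 in non-tumour tissue and 1.13, 1.27 and 1.84 in tumours and rose by 1.15 ± 0.18 (adjusted p = 0.000243). Lrig3, a relative of Lrig1, fell from 2.55, 2.51 and 2.47 to -0.28, 0.48 and -0.37, a change of -2.57 ± 0.24 (5.92-fold lower, adjusted p = 2.68e-06). With median centring 1 of the 6 lower calls was left. Of 19 feedback and immediate early genes of the ERK pathway 6 were higher and 2 lower (31.6% and 10.5%). Etv5, a transcription factor induced by ERK, stood at -0.55, -0.41 and -0.01 in non-tumour tissue and 0.68, 2.60 and 1.93 in tumours, with tumour 1 the lowest of the tumours, and rose by 2.06 ± 0.37 (adjusted p = 0.000667). Spred1 and Dusp4, both inhibitors of the pathway, and the early response gene Ier3 rose by 0.67 ± 0.13, 1.10 ± 0.27 and 1.09 ± 0.25, with adjusted p-values by limma of 0.00119, 0.00529 and 0.00425.

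Of 26 genes of BMP and TGF-beta signalling 9 were higher and 4 lower (34.6% and 15.4%, against 12.7% and 19.3% of all genes). Id3, a direct target of BMP signalling that blocks differentiation factors, stood at -0.35, -0.13 and -0.12 in non-tumour tissue and 1.27, 1.39 and 1.15 in tumours, and Id2 of the same family at -1.20, -1.13 and -1.25 in non-tumour tissue and -0.38, 0.11 and -0.07 in tumours. The tumour arrays of both lay apart from the non-tumour arrays, and the changes were 1.47 ± 0.15 and 1.08 ± 0.14 (adjusted p = 5.85e-06 and adjusted p = 4.6e-05). Id4, another member of the family, ran the other way, from -0.45, -1.0 and -0.92 to -3.12, -3.15 and -3.14, a change of -2.35 ± 0.32 (5.09-fold lower, adjusted p = 7.15e-05). Among the ligands, Bmp4 stood at -0.08, -0.19 and -0.15 in non-tumour tissue and 0.76, 0.48 and 1.05 in tumours and Bmp7 at -0.49, -0.56 and -0.65 in non-tumour tissue and 0.93, 0.40 and 0.89 in tumours; they rose by 0.90 ± 0.16 and 1.30 ± 0.23 (adjusted p = 0.00055 and adjusted p = 0.000572). Bmp3, a ligand that opposes the others, fell from 1.0, 1.13 and 1.50 to -0.79, -0.84 and -1.25 (-2.17 ± 0.34, adjusted p = 0.000261). Higher calls numbered 5 without non-tumour array 3 or tumour array 3, and 2 genes were lower without the arrays of bright reference. Of 10 Hedgehog pathway genes 3 were higher (30%) and none lower. The receptor and target Ptch1 rose by 0.84 ± 0.13 and the mesenchymal factor Foxf1 by 0.86 ± 0.19 (adjusted p = 0.000267 and adjusted p = 0.00266). In the Notch list 4 of 14 were higher and 2 lower (28.6% and 14.3%). Its feedback inhibitor Nrarp fell by 0.93 ± 0.20 (adjusted p = 0.00273). Without non-tumour array 3 or tumour array 3, 2 Notch genes were higher.

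Genes by which colonocytes move ions and water were lower in 26 of 36 members (19.3% of all genes), with 1 higher and a median of -1.78. Car4, a carbonic anhydrase of the brush border, stood at 2.86, 3.07 and 2.54 in non-tumour tissue and -2.74, -2.64 and -4.19 in tumours. The gap between the groups was wider than the whole spread within either, and Car4 fell by 6.01 ± 0.40 (64.4-fold, adjusted p = 3.28e-07). Aqp8, a water channel, went from 4.19, 3.35 and 3.55 to -1.68, -1.72 and -2.67 and fell 52.7-fold (-5.72 ± 0.46, adjusted p = 8.21e-07). Slc26a3, which exchanges chloride for bicarbonate, went from 6.09, 6.32 and 5.56 to 0.38, 0.97 and 0.06 (-5.52 ± 0.38, adjusted p = 3.28e-07) and was well above background on 2 of 3 tumour arrays. Car1 stayed above the pool in tumours, at 4.59, 2.91 and 5.46, and fell by 3.12 ± 0.60 (adjusted p = 0.00107), with tumour 2 the lowest. Guca2a, the hormone guanylin that sets salt and water secretion, fell from 6.74, 6.68 and 6.20 to 2.53, 3.21 and 3.15 (-3.57 ± 0.37, adjusted p = 7.42e-06) and its reference channel was also called lower, at -1.04. The butyrate carrier gene Slc16a1 fell by 2.32 ± 0.17 (adjusted p = 3.62e-07). The member called higher was the sodium exchanger gene Slc9a3 (1.34 ± 0.50, adjusted p = 0.0499), whose adjusted p was 0.0593 to 0.19 without non-tumour array 1, 2 or 3 or tumour array 2 or 3. With non-uniform spots left out 9 of the 19 members tested were called lower, and in the deposited log2 values 12 of 22.

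The narrower list of absorptive colonocyte markers had 11 of 12 members lower, with a median of -3.35. Besides the transporters it holds Hao2, a peroxisomal oxidase gene, which fell from 1.57, 1.11 and 1.58 to -2.98, -3.0 and -4.47 (30-fold, adjusted p = 1.96e-06), and Cyp2c55, a cytochrome P450 gene, which fell from 3.16, 1.78 and 4.18 to -1.06, -1.13 and -0.94 (16.9-fold, adjusted p = 1.85e-05). The sugar phosphate carrier gene Slc37a2 and the protease gene Mep1a fell by 2.18 ± 0.29 and 2.19 ± 0.23. Krt20, the keratin of surface cells, was at 4.68, 4.70 and 3.72 in non-tumour tissue and 2.64, 2.36 and 3.93 in tumours, with overlap at tumour 3, and changed by -1.39 ± 0.38 (adjusted p = 0.0119); its reference channel was called lower, at -2.56, its red channel alone changed by -4.17, and its adjusted p was 0.0516 without non-tumour array 1 and 0.0604 without tumour array 2. Of 23 markers of small intestinal enterocytes 11 were lower and 2 higher; the lower ones include genes that colonocytes also express, such as Fabp2, which binds fatty acids, at 4.97, 4.19 and 4.65 in non-tumour tissue and 0.90, 0.76 and 1.27 in tumours (-3.62 ± 0.47, adjusted p = 4.47e-05), and the protease gene Mep1b (-3.18 ± 0.35, adjusted p = 1.24e-05). Lower calls in the colonocyte list were 5 of the 6 members tested with non-uniform spots left out and 7 of the 8 in the deposited log2 values; in the enterocyte list they were 7 of 16 when a probe had to be well above background on all 6 arrays.

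Transcription factors of differentiated epithelium were lower in 16 of 29 members and higher in 1, with a median of -1.06. Klf4, which stops division in the upper crypt, stood at 1.72, 1.92 and 2.07 in non-tumour tissue and -0.95, -0.52 and -0.80 in tumours. All tumour arrays lay below the pool and all non-tumour arrays above it, and Klf4 fell by 2.66 ± 0.17 (6.31-fold, adjusted p = 3.28e-07). Vdr, the vitamin D receptor, went from 2.60, 2.40 and 2.36 to -0.06, -0.69 and -0.68 and fell by 2.93 ± 0.27 (adjusted p = 2.47e-06). Nr1h4, the bile acid receptor FXR, fell from 1.74, 2.37 and 2.02 to -0.77, -0.77 and -0.40 (-2.69 ± 0.27, adjusted p = 5.81e-06). Atoh1, which commits cells to the secretory lineage, stood at 2.54, 4.06 and 3.15 in non-tumour tissue and 1.34, 1.11 and 0.87 in tumours and fell by 2.14 ± 0.43 (adjusted p = 0.00156). Gfi1, which acts below Atoh1, fell by 1.56 ± 0.25 (adjusted p = 0.000319). Hnf4a, a factor of enterocyte genes, changed by -1.15 ± 0.17 (adjusted p = 0.000159), against -0.26 and an adjusted p of 0.45 in the deposited log2 values.

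Cdx1 and Cdx2, factors that fix the identity of the posterior gut, were lower. Of factors of the anterior gut, Onecut2 and Gata4 were called higher, but the call of Gata4 depended on the scaling. Cdx1 stood at 4.49, 5.88 and 4.94 in non-tumour tissue and 2.63, 2.71 and 3.81 in tumours and fell by 2.05 ± 0.35 (adjusted p = 0.00043). Cdx2 was at 5.40, 5.77 and 4.95 in non-tumour tissue and 2.06, 2.61 and 4.82 in tumours; tumour 3 lay close to the non-tumour arrays, the change was -2.21 ± 0.59 (adjusted p = 0.0104), and without tumour 1 the adjusted p was 0.0537. Onecut2, a factor of the duodenum and of the developing liver and pancreas, rose from -0.52, -0.59 and -0.24 to 2.0, 2.02 and 2.97 (2.78 ± 0.25, 6.88-fold, adjusted p = 2.03e-06), well above background on 2 of 3 non-tumour arrays. Gata4, a factor of the proximal small intestine, rose from -1.15, -0.86 and -1.15 to 0.27, 0.08 and 0.47 (1.32 ± 0.16, adjusted p = 3.24e-05), but its reference channel was called lower, at -1.03, and with the red channel alone the change was 0.36 with an adjusted p of 0.312. In the deposited log2 values Gata4 changed by 0.03 (adjusted p = 0.949 by limma). The posterior genes Hoxa13 and Hoxd9 were also called higher, by 0.53 ± 0.19 and 0.62 ± 0.18, but with the mean of all probes of a gene they were at -0.11 and -0.05, and Hoxa13 was at -1.20 with the red channel alone. Over the whole list of 20 regional genes 4 were higher and 3 lower (20% and 15%, against 12.7% and 19.3% of all genes). Without non-tumour array 1 or 2, 2 were higher, and without non-tumour array 2 the median turned from -0.132 to 0.0392.

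Of the marker genes of goblet cells, which make mucus, 18 of 20 were lower and none higher, with a median of -2.43. Clca1, a protein secreted with the mucus, stood at 4.22, 4.94 and 3.78 in non-tumour tissue and 0.54, -0.46 and -2.19 in tumours. Tumour 3 was the lowest, no tumour array reached the non-tumour range, and the change was -5.02 ± 0.62 (32.3-fold lower, adjusted p = 3.22e-05). Zg16, a lectin of the mucus layer, went from 6.46, 6.36 and 5.83 to 1.91, 2.21 and 0.42 (-4.70 ± 0.47, adjusted p = 4.69e-06), and Fcgbp, another mucus protein, from 3.96, 4.10 and 3.48 to 0.34, -0.32 and -0.57 (-4.03 ± 0.50, adjusted p = 3.44e-05). Agr2, needed to fold mucin, stood at 5.19, 6.03 and 5.11 in non-tumour tissue and 2.87, 2.96 and 3.08 in tumours (-2.47 ± 0.31, adjusted p = 3.73e-05). Muc2, the main mucin of the colon, was at 7.74, 7.89 and 7.55 in non-tumour tissue and 5.87, 5.68 and 4.68 in tumours, still well above the pool in tumours, and changed by -2.32 ± 0.56 (adjusted p = 0.00563); its reference channel was also called lower, at -1.92, and without the arrays of bright reference the adjusted p was 0.0589. In the deposited log2 values 11 of the 13 members present were called lower.

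Hormone-secreting cells had 16 of 25 marker genes lower and 1 higher, with a median of -1.36. Gcg, which encodes proglucagon, stood at 4.37, 4.95 and 4.64 in non-tumour tissue and 0.70, 1.12 and 0.53 in tumours, with no overlap, and fell by 3.87 ± 0.35 (14.6-fold, adjusted p = 2.03e-06). Chga and Chgb, proteins of the secretory granules, fell by 2.76 ± 0.32 and 3.58 ± 0.35 (adjusted p = 1.85e-05 and adjusted p = 3.96e-06). Insl5, a hormone of the distal colon, went from 3.84, 4.36 and 2.74 to 0.14, 0.67 and 0.42 (-3.24 ± 0.43, adjusted p = 6.39e-05). Pyy, peptide YY, was at 4.28, 4.37 and 3.57 in non-tumour tissue and 1.21, -0.01 and 0.94 in tumours (-3.36 ± 0.33, adjusted p = 4.76e-06), but its reference channel was called higher, at 2.35, and its red channel alone changed by -0.73 with an adjusted p of 0.302. Of 15 tuft cell markers 1 was higher and 2 lower (6.67% and 13.3%, against 12.7% and 19.3% of all genes): Avil, an actin-binding protein, rose from 0.64, 1.20 and 0.65 to 2.05, 3.57 and 4.36 (2.50 ± 0.42, adjusted p = 0.000447) and the factor Spib fell by 2.14 ± 0.39 (adjusted p = 0.000727). Of 10 Paneth cell genes 4 were higher and 1 lower. The higher ones numbered 7 in the red channel alone. Mmp7 is among them and is given with the metalloproteases, and Defa22, an alpha-defensin with near-identical relatives that make its value uncertain, stood at 3.22, 3.59 and 2.54 in non-tumour tissue and 5.46, 4.98 and 4.60 in tumours (1.90 ± 0.48, adjusted p = 0.00686).

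The genes of energy metabolism in mitochondria were lower almost throughout. In fatty acid oxidation and ketone synthesis 22 of 25 were lower and none higher, with a median of -1.03, and in the respiratory chain 24 of 28 were lower and none higher, with a median of -0.797. Ppargc1b, a coactivator of mitochondrial genes, stood at 1.73, 1.50 and 1.56 in non-tumour tissue and -0.27, -0.24 and -0.32 in tumours and fell by 1.87 ± 0.17 (adjusted p = 1.94e-06). Its partner Esrra, a nuclear receptor, went from 1.31, 1.34 and 1.21 to -0.19, -0.18 and 0.14 (-1.36 ± 0.14, adjusted p = 5.31e-06). Cpt1a, the carrier step that admits fatty acids to mitochondria, stood at 1.01, 0.99 and 1.32 in non-tumour tissue and -0.22, -0.18 and 0.08 in tumours and fell by 1.22 ± 0.14 (adjusted p = 1.77e-05). Hadh and Acat1, enzymes of the later steps, fell by 1.65 ± 0.20 and 1.56 ± 0.16 (adjusted p = 2.34e-05 and adjusted p = 4.85e-06). In the respiratory chain Cox5a, a subunit of cytochrome oxidase, stood at 0.73, 0.41 and 0.53 in non-tumour tissue and -0.78, -0.56 and -0.59 in tumours and fell by 1.20 ± 0.11 (adjusted p = 2.91e-06). Cox6c and Cox5b of the same complex and Ndufa1 of complex I fell by 1.14 ± 0.12, 1.06 ± 0.12 and 1.11 ± 0.12. Median centring left 12 and 10 lower calls in these lists. In the deposited log2 values 12 of 17 and 10 of 11 members present were lower, with non-uniform spots left out 9 of 21 respiratory chain genes were, and the medians stayed between -1.17 and -0.835 and between -0.98 and -0.577.

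Glycolysis and hypoxia genes were lower in 12 of 24 members and higher in none, with a median of -0.543. The glucose carrier gene Slc2a1 stood at 1.58, 1.41 and 1.80 in non-tumour tissue and 0.45, 0.52 and 0.52 in tumours and fell by 1.10 ± 0.14 (2.15-fold, adjusted p = 3.33e-05). With median centring 4 members were called lower, in the deposited log2 values 3 of 14, and with non-uniform spots left out 7 of 18.

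Enzymes and carriers that handle foreign compounds were lower in 27 of 39 members and higher in 4, with a median of -1.63. Ces2c, a carboxylesterase gene, stood at 3.05, 2.80 and 3.14 in non-tumour tissue and -1.10, -1.64 and -1.72 in tumours and fell by 4.48 ± 0.35 (22.3-fold, adjusted p = 7.95e-07). Cyp2s1, a cytochrome P450 gene, went from 2.09, 1.29 and 1.70 to -1.57, -1.95 and -1.80 (11-fold lower, adjusted p = 3.28e-07). The sulfotransferase gene Sult1c2, the glutathione transferase gene Gstm3 and the amine oxidase gene Maoa fell by 2.64 ± 0.25, 2.37 ± 0.21 and 2.23 ± 0.22, with adjusted p-values by limma of 2.91e-06, 2.03e-06 and 3.96e-06. The reference channel of Gstm3 was called higher, at 0.89, and its red channel alone changed by -1.40. Abcc2, an efflux pump of the apical membrane, ran the other way, from -0.58, -0.43 and -0.52 to 0.72, 1.22 and 1.82 (1.76 ± 0.27, adjusted p = 0.000199), well above background on 1 of 3 non-tumour arrays. So did Ugt2b34, a glucuronosyltransferase gene, which rose by 0.89 ± 0.24 (adjusted p = 0.01). Without the arrays of bright reference 2 genes of this list were higher.

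Of 23 antioxidant genes 4 were higher and 8 lower (17.4% and 34.8%, against 12.7% and 19.3% of all genes). Nox1, the NADPH oxidase of the colon, which makes rather than removes superoxide, stood at 0.95, 1.50 and 0.63 in non-tumour tissue and 2.45, 1.80 and 3.13 in tumours and rose by 1.44 ± 0.28 (adjusted p = 0.0012). Hmox1, which degrades haem, and Sod3, an extracellular superoxide dismutase, rose by 1.19 ± 0.26 and 1.48 ± 0.27 (adjusted p = 0.00302 and adjusted p = 0.000858). Prdx6, a peroxidase, fell from 2.22, 1.97 and 2.0 to -0.60, -0.55 and -0.95 (-2.77 ± 0.32, adjusted p = 1.73e-05). Lower calls in this list numbered 4 or 5 without non-tumour array 1 or 2 or any 1 tumour array, 2 without the arrays of bright reference, 1 with median centring and 3 with Agilent's log ratio, and were 3 of 15 in the deposited log2 values and 2 of 16 with non-uniform spots left out. In sterol synthesis and uptake 8 of 24 were lower and 1 higher: the enzyme genes Msmo1 and Dhcr7 fell by 1.53 ± 0.19 and 1.24 ± 0.15; median centring left 3 lower calls and the red channel alone 5.

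Junction and adhesion genes were lower in 14 of 31 members and higher in none, with a median of -0.643. Cldn8, a claudin of tight junctions in the distal gut, stood at 3.05, 3.68 and 3.08 in non-tumour tissue and 0.75, 0.51 and -0.80 in tumours and fell by 3.12 ± 0.42 (8.67-fold, adjusted p = 6.79e-05). Cdh1, which encodes E-cadherin, went from 2.96, 2.94 and 2.56 to 1.89, 1.83 and 1.98 (-0.92 ± 0.14, adjusted p = 0.000206). Cldn3, another claudin gene, fell by 1.01 ± 0.13 (adjusted p = 4.51e-05). Krt8, the main type II keratin of gut epithelium, fell from 3.97, 3.87 and 3.60 to 1.83, 1.70 and 2.48 (-1.81 ± 0.22, adjusted p = 2.51e-05), while Krt23 rose from 1.72, 2.79 and 1.86 to 3.0, 4.10 and 4.37 (1.70 ± 0.41, adjusted p = 0.00553). Median centring left 8 junction genes lower, and in the deposited log2 values 8 of 22 were. Among 12 factors linked to the mesenchymal state 4 were higher and 1 lower: Snai1, a repressor of E-cadherin, stood at -0.61, -0.69 and -0.59 in non-tumour tissue and 0.42, 0.26 and 0.31 in tumours and rose by 0.96 ± 0.17 (adjusted p = 0.00049), and Tcf4 and Tcf3 of the E-protein family rose by 1.33 ± 0.21 and 0.75 ± 0.14 (adjusted p = 0.000246 and adjusted p = 0.00103). The shares called higher and lower were 33.3% and 8.33%, against 12.7% and 19.3% of all genes. The member called lower was Zeb1, at -0.74, and its red channel alone changed by -0.37 (adjusted p = 0.293 by limma). Of the 7 members not called, Twist1, Snai2, Zeb2 and Vim changed by -0.30, 0.20, 0.27 and 1.03.

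Metalloproteases, their inhibitors and the plasminogen system were higher in 15 of 27 members and lower in 2, with a median of 0.556. Mmp13, a collagenase, stood at 0.28, 1.05 and 2.14 in non-tumour tissue and 4.34, 4.43 and 4.80 in tumours. Non-tumour array 3 was the highest of its group and still far below the lowest tumour; the change was 3.37 ± 0.33 (10.3-fold, adjusted p = 3.96e-06). Mmp10, stromelysin 2, went from 1.34, 1.56 and 1.42 to 4.39, 4.68 and 5.32 (3.36 ± 0.27, 10.3-fold, adjusted p = 8.21e-07); its reference channel was called lower, at -1.48, and its red channel alone changed by 2.01. Mmp7, matrilysin, an epithelial protease and Wnt target, stood at 1.90, 2.45 and 2.92 in non-tumour tissue and 4.85, 5.63 and 5.21 in tumours and rose by 2.81 ± 0.54 (7.01-fold, adjusted p = 0.00113). Mmp9, a gelatinase of leukocytes, was at 0.79, 0.94 and 0.80 in non-tumour tissue and 2.71, 3.64 and 3.27 in tumours (2.37 ± 0.31, adjusted p = 4.79e-05). Mmp12, the elastase of macrophages, rose from -0.11, 0.31 and 0.21 to 2.02, 2.50 and 3.05 (2.38 ± 0.23, adjusted p = 3.35e-06) and was well above background on 1 of 3 non-tumour arrays. Plaur, the urokinase receptor, rose by 1.02 ± 0.17 (adjusted p = 0.000365). With non-uniform spots left out 6 of 19 members were called higher.

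**Figure D3:**
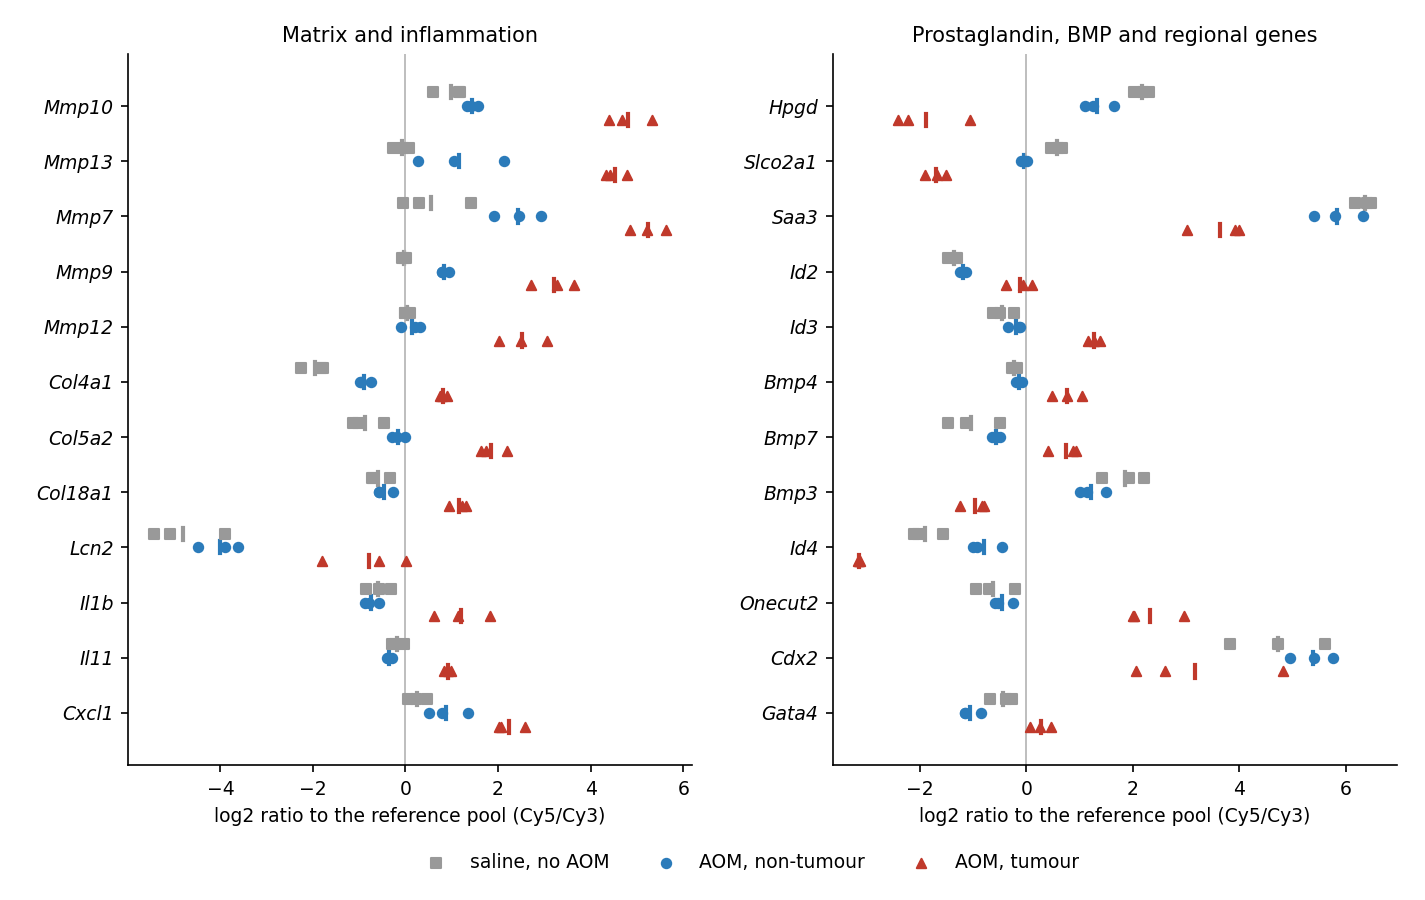
Log2 ratio to the reference pool on each array for 12 genes of matrix and inflammation (left) and 12 of prostaglandin, BMP and regional identity (right); squares are saline, circles non-tumour tissue after AOM, triangles tumours, short bars group means. Triangles lie right of all circles for each gene at the left, and tumour 3 is the triangle of Cdx2 that lies near the circles.

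Collagens and matricellular proteins were higher in 15 of 29 members and lower in 1, with a median of 0.685. Col4a1 and Col4a2, the chains of basement membrane collagen IV, stood at -0.98, -0.75 and -0.96 in non-tumour tissue and 0.75, 0.78 and 0.90 in tumours for Col4a1 and rose by 1.71 ± 0.23 and 1.10 ± 0.23 (adjusted p = 7e-05 and adjusted p = 0.00226). The reference channel of Col4a1 was called lower, at -0.70, and its red channel alone changed by 1.25. Col18a1, another basement membrane collagen, went from -0.57, -0.56 and -0.27 to 0.94, 1.23 and 1.30 (1.62 ± 0.17, adjusted p = 8.05e-06), and Col5a2, a fibrillar chain, from -0.02, -0.18 and -0.28 to 1.74, 1.64 and 2.19 (2.02 ± 0.31, adjusted p = 0.000208). Of 20 laminin and integrin genes 3 were higher and 2 lower (15% and 10%, against 12.7% and 19.3% of all genes), and the 3 are laminin chains. Lama1 stood at -0.52, -0.38 and -0.11 in non-tumour tissue and 1.32, 1.64 and 1.39 in tumours, well above background on 1 of 3 non-tumour arrays, and rose by 1.79 ± 0.20 (adjusted p = 1.18e-05). Lamb1 and Lama5 rose by 1.40 ± 0.21 and 0.84 ± 0.17 (adjusted p = 0.000136 and adjusted p = 0.00133). Among 15 fibroblast markers, collagen genes included, 5 were higher and 2 lower (33.3% and 13.3%). The median of this list was -0.0795, turning to 0.312 with median centring, and 3 members were higher without non-tumour array 2. Collagen calls numbered 9 without non-tumour array 1 or 3 or tumour array 3, and 7 without the arrays of bright reference.

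Cytokine and chemokine genes were higher in 18 of 37 members and lower in 4, with a median of 0.832. Il11, an IL-6 family cytokine, stood at -0.38, -0.41 and -0.29 in non-tumour tissue and 0.99, 0.83 and 0.91 in tumours. Its arrays differed little within a group, and it rose by 1.27 ± 0.11 (2.41-fold, adjusted p = 1.3e-06). Il1b, interleukin 1 beta, was at -0.88, -0.79 and -0.58 in non-tumour tissue and 1.82, 1.13 and 0.61 in tumours, with tumour 1 the highest, and rose by 1.94 ± 0.35 (3.84-fold, adjusted p = 0.000742). Cxcl1, which draws neutrophils, stood at 0.50, 1.35 and 0.80 in non-tumour tissue and 2.07, 2.03 and 2.58 in tumours and rose by 1.34 ± 0.25 (adjusted p = 0.000793). Cxcl9, a chemokine induced by interferon gamma, went from 0.17, 0.11 and 0.28 to 2.15, 2.0 and 2.80 (2.13 ± 0.34, adjusted p = 0.000288), well above background on 1 of 3 non-tumour arrays. Tnf, tumour necrosis factor, was at 0.41, 1.32 and 0.81 in non-tumour tissue and 1.36, 1.66 and 2.57 in tumours (1.01 ± 0.29, adjusted p = 0.0139), with adjusted p-values of 0.0733 without non-tumour array 1 and 0.0761 without tumour array 3. In a fit of the 6 arrays alone it was 0.0731 by limma. The reference channel of Tnf was called lower, at -0.30, and its red channel alone changed by 0.49 (adjusted p = 0.0474 by limma). Ccl2, which draws monocytes, rose by 0.88 ± 0.16 (adjusted p = 0.000625). Of the 18 members called higher, 4 were not well above background on any non-tumour array and so entered the test through the tumour arrays. Cxcl3, another neutrophil chemokine, was among them and was higher in tumours by an estimated 3.65-fold. Il6 was higher by an estimated 1.65-fold, and its call was lost with median centring (change 0.59, adjusted p = 0.224 by limma). These estimates use scaled red intensities, with non-tumour values raised to the dimmest measurable probes where they lay lower, and without a dye swap. They depend on the scaling and are not firm lower limits. The red channel alone changed by 1.655 for Cxcl3 and 0.6885 for Il6 on the log2 scale, below both estimates.

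The 4 lower members were Ccl6, Il18, Ccl28 and Cxcl13. Ccl6, a chemokine of myeloid and goblet cells, fell from 2.64, 2.42 and 2.70 to 0.84, -0.13 and -1.28 (-2.78 ± 0.36, adjusted p = 4.73e-05), with tumour 3 the lowest. Il18, an epithelial cytokine, and Ccl28, a mucosal chemokine, fell by 1.29 ± 0.18 and 1.08 ± 0.21 (adjusted p = 9.84e-05 and adjusted p = 0.00121). Cxcl13, the chemokine of B cell follicles, was at 2.84, 3.07 and 2.34 in non-tumour tissue and 2.01, 0.78 and 1.23 in tumours (-1.41 ± 0.51, adjusted p = 0.0446), with adjusted p-values of 0.0504 to 0.151 without non-tumour array 1, 2 or 3 or tumour array 2 or 3. When a probe had to be well above background on all 6 arrays, 11 of 28 cytokine genes were called higher.

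Of 34 effectors of inflammation 5 were higher and 12 lower (14.7% and 35.3%, against 12.7% and 19.3% of all genes). Lcn2, which withholds iron from bacteria, stood at -3.89, -4.48 and -3.62 in non-tumour tissue and -0.57, 0.01 and -1.80 in tumours; both groups lay below the pool except for tumour 2, and Lcn2 rose by 3.21 ± 0.64 (9.28-fold, adjusted p = 0.00139). Icam1, an adhesion molecule for leukocytes, and the lipoxygenase gene Alox12 rose by 1.28 ± 0.22 and 2.18 ± 0.39 (adjusted p = 0.00043 and adjusted p = 0.000686). The acute phase genes Saa1 and Saa3 were lower: Saa3 went from 5.80, 6.31 and 5.40 to 3.99, 3.91 and 3.01 (-2.20 ± 0.30, adjusted p = 7.33e-05) and Saa1 fell by 2.68 ± 0.36 (adjusted p = 5.78e-05); the Saa genes are close copies, so their values may be mixed. The median of the list was -0.0152 and turned sign with median centring, the red channel alone, the deposited log2 values and without non-tumour array 2 or tumour array 1 or 2, and higher calls numbered 9 with median centring and 8 in the red channel alone. Nos2 and Ptgs2, given in any case, were not called: Nos2, the inducible nitric oxide synthase, stood at 1.09, 2.71 and 1.56 in non-tumour tissue and 1.94, 1.61 and 2.59 in tumours (adjusted p = 0.604 by limma), and Ptgs2, which encodes the prostaglandin enzyme COX-2, at 0.06, 1.74 and 0.87 in non-tumour tissue and 1.73, 1.84 and 1.72 in tumours (0.88 ± 0.34, adjusted p = 0.0627 by limma).

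The same list holds genes of prostaglandin synthesis, transport, removal and reception, which did not all move one way. Ptges, an enzyme that makes prostaglandin E2, stood at 0.00, -0.12 and 0.52 in non-tumour tissue and 0.96, 0.72 and 0.79 in tumours and rose by 0.69 ± 0.20 (adjusted p = 0.0163), with adjusted p-values of 0.0543 to 0.0672 without non-tumour array 1 or 2, tumour array 1 or the arrays of bright reference. Hpgd, the enzyme that inactivates prostaglandin E2, stood at 1.25, 1.09 and 1.65 in non-tumour tissue and -1.05, -2.40 and -2.21 in tumours, with a gap between the groups larger than their spread, and fell by 3.22 ± 0.37 (9.31-fold, adjusted p = 1.82e-05). Slco2a1, the carrier that takes prostaglandins into cells, went from -0.03, 0.01 and -0.10 to -1.51, -1.90 and -1.68 (-1.66 ± 0.20, adjusted p = 2.65e-05). Ptger3, the receptor EP3, fell from -0.15, -0.28 and -0.19 to -1.59, -2.17 and -2.74 (-1.96 ± 0.24, adjusted p = 2.88e-05). Of 24 interferon-stimulated genes none was higher and 3 were lower (12.5%, against 19.3% of all genes), among them Oasl1 at -1.69 ± 0.30 (adjusted p = 0.000577); 1 was lower without non-tumour array 1 or tumour array 1, and with median centring or Agilent's log ratio. In the complement list 6 of 15 were higher and 3 lower: C5ar1, the receptor of the C5a fragment, rose from -0.39, -0.29 and -0.11 to 1.13, 0.77 and 0.96 (1.22 ± 0.12, adjusted p = 3.82e-06) and the inhibitor gene Serping1 rose by 1.10 ± 0.23 (adjusted p = 0.00221). The complement shares called higher and lower were 40% and 20%, against 12.7% and 19.3% of all genes. Complement calls in the higher direction numbered 2 without non-tumour array 2 and 3 without tumour array 3.

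A minority of cell cycle genes was called. Of 26 DNA replication genes 7 were higher and none lower (median 0.196), and of 24 mitosis genes 9 were higher and none lower (median 0.402), against 12.7% higher over all genes. Top2a, which untangles DNA in dividing cells, stood at -0.14, 0.03 and -0.13 in non-tumour tissue and 0.50, 1.34 and 1.35 in tumours and rose by 1.14 ± 0.21 (adjusted p = 0.000873), with tumour 1 nearer to the non-tumour arrays. Cdk1, the kinase that drives mitosis, rose by 0.83 ± 0.21 and Gins2 of the replication helicase by 0.75 ± 0.17 (adjusted p = 0.00727 and adjusted p = 0.00415). The proliferation marker gene Mki67 stood at 2.02, 2.37 and 1.73 in non-tumour tissue and 1.43, 1.35 and 2.06 in tumours, with overlapping groups, and was not called (-0.43 ± 0.21, adjusted p = 0.135). Without tumour array 3, 4 mitosis genes and 3 replication genes were called; without non-tumour array 1 or 3, 3 and 4 replication genes; and without the arrays of bright reference, 4 and 3. Of 27 ribosome biogenesis genes 11 were higher and 1 lower, with nucleostemin, Gnl3, at -0.15, 0.41 and 0.26 in non-tumour tissue and 0.87, 1.23 and 1.25 in tumours (0.94 ± 0.18, adjusted p = 0.00125); 6 were higher without non-tumour array 1, 7 without tumour array 3, and 2 of 21 with non-uniform spots left out.

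Of 24 cell cycle inhibitors and targets of p53, 6 were higher and 6 lower (25% each, against 12.7% and 19.3% of all genes). Bax, which promotes apoptosis, stood at 0.49, 0.79 and 0.81 in non-tumour tissue and 1.58, 1.58 and 2.04 in tumours and rose by 1.03 ± 0.14 (adjusted p = 6.56e-05). The p53 targets Eda2r, Phlda3 and Sesn2 rose by 1.86 ± 0.34, 1.01 ± 0.25 and 0.64 ± 0.14, with adjusted p-values by limma of 0.000812, 0.00581 and 0.00216; Eda2r was well above background on 1 of 3 non-tumour arrays. Perp, a p53 target and desmosome protein, fell from 2.85, 2.92 and 3.04 to 1.31, 1.11 and 1.70 (-1.56 ± 0.16, adjusted p = 7.19e-06). Cdkn2b, the inhibitor p15, fell from 2.26, 1.92 and 2.21 to 1.14, 0.97 and 0.93 (-1.12 ± 0.20, adjusted p = 0.000646). Median centring left 2 lower calls in this list, in the deposited log2 values 2 of 19 were lower, and Agilent's log ratio gave 11 higher ones.

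In the IGF system 6 of 14 genes were higher and 2 lower (42.9% and 14.3%, against 12.7% and 19.3% of all genes). Igf1, the growth factor, stood at -0.83, -1.07 and -0.15 in non-tumour tissue and 0.99, 0.60 and 0.96 in tumours and rose by 1.53 ± 0.28 (adjusted p = 0.000892), while its receptor gene Igf1r fell by 1.33 ± 0.23 (adjusted p = 0.000565). The binding proteins Igfbp4 and Igfbp7 rose from -1.79, -1.70 and -1.72 to 0.39, 0.71 and -0.57 and from -2.05, -2.31 and -2.46 to -1.0, -1.04 and -1.10, by 1.91 ± 0.30 and 1.22 ± 0.21 (adjusted p = 0.00025 and adjusted p = 0.000491). Pappa, a protease that cleaves Igfbp4, and Htra1, another secreted protease, rose by 0.87 ± 0.18 and 1.87 ± 0.26. The IGF list's median was 0.395 and -0.0501 with non-uniform spots left out.

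Circadian clock genes were lower in 9 of 19 members and higher in none, with a median of -0.453. Dbp, a clock output factor, stood at -0.49, -0.16 and -0.77 in non-tumour tissue and -1.68, -2.05 and -2.10 in tumours and fell by 1.47 ± 0.19 (adjusted p = 3.67e-05). Hlf of the same family and the repressor gene Ciart fell by 1.60 ± 0.26 and 1.23 ± 0.19. The time of day at which tissue was taken was not stated. Lower calls numbered 5 with median centring or Agilent's log ratio, and were 3 of 17 in the deposited log2 values. Of 20 angiogenesis genes 5 were higher and 3 lower (25% and 15%, against 12.7% and 19.3% of all genes), with a median of -0.0344. Angpt2 and Apln, both of sprouting vessels, rose by 1.17 ± 0.21 and 1.06 ± 0.26, and Nrp2, a receptor for lymphatic growth factors, fell by 1.31 ± 0.24 (adjusted p = 0.00075, 0.00554 and 0.000775). Without non-tumour array 1 or tumour array 3, 3 angiogenesis genes were higher.

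Markers of cells outside the epithelium moved with these groups, in samples of whole tissue where fewer cells of a type and less RNA per cell cannot be told apart. Smooth muscle genes were lower in 15 of 17 members and higher in none, with a median of -2.14. Their mean level was 1.60, 1.72 and 0.35 in non-tumour tissue and -1.17, -1.26 and -1.42 in tumours, so non-tumour array 3 was low and the groups stayed apart. Des, the muscle filament desmin, stood at 3.11, 3.72 and 1.57 in non-tumour tissue and -2.20, -2.14 and -2.38 in tumours (-5.04 ± 0.81, 33-fold lower, adjusted p = 0.000292), and Cnn1, calponin, at 3.26, 3.69 and 1.62 in non-tumour tissue and -1.25, -1.49 and -2.64 in tumours (-4.65 ± 0.85, adjusted p = 0.00075). On saline arrays Des and Cnn1 averaged 0.29 and 0.54, below the non-tumour tissue after AOM. The part of muscle in the lower calls of other lists was not tested. With non-uniform spots left out 8 of the 11 muscle genes tested were called lower, and in the deposited log2 values 9 of 12.

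**Figure D4:**
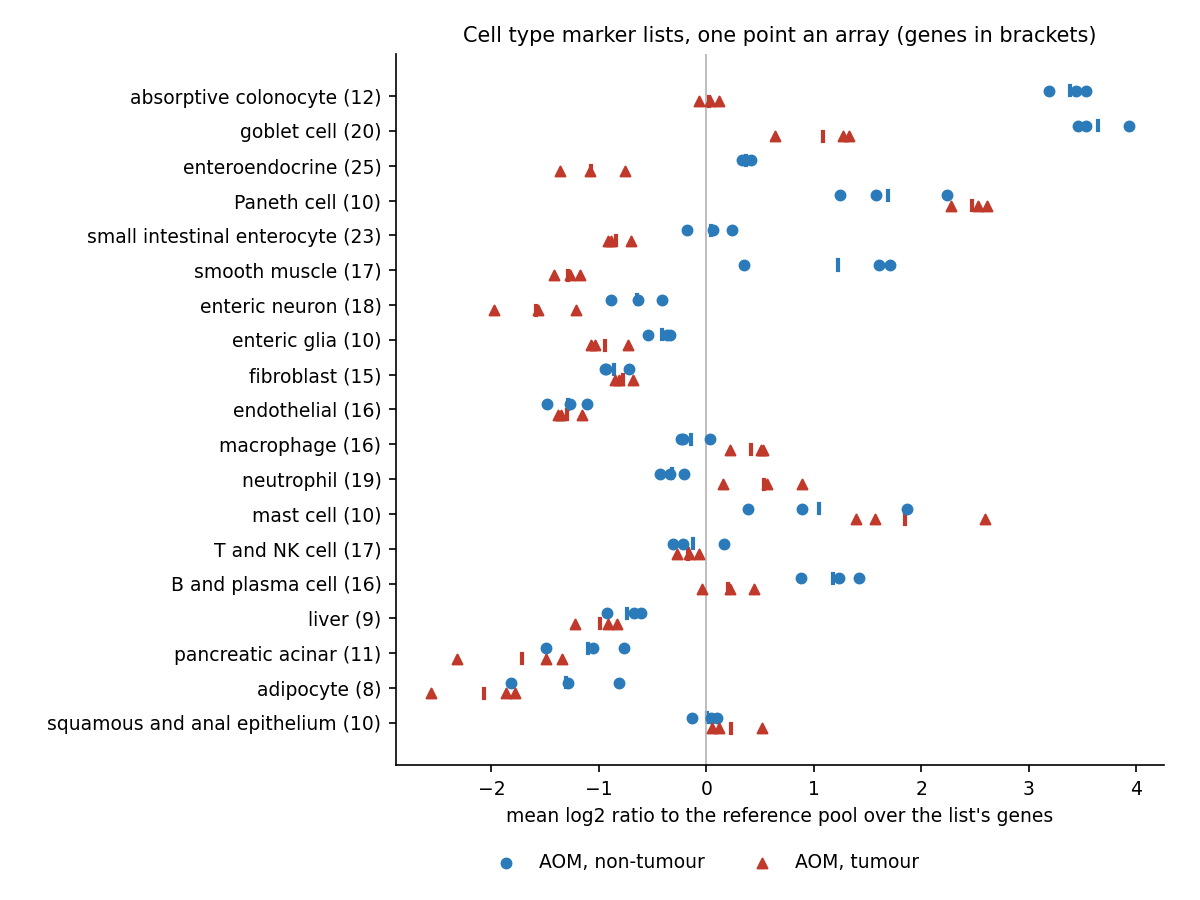
Mean log2 ratio to the reference pool over the genes of each cell type list, one point an array, with circles for non-tumour tissue after AOM, triangles for tumours and short bars for group means; the number of genes is in brackets. Colonocyte, goblet and smooth muscle lists stand apart with all triangles at the left, while the fibroblast and endothelial lists overlap.

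Enteric neurons had 10 of 18 markers lower and none higher, with a mean level of -0.42, -0.63 and -0.88 in non-tumour tissue and -1.21, -1.57 and -1.98 in tumours. Vip, a neuropeptide, stood at 2.95, 3.30 and 1.65 in non-tumour tissue and 0.29, -0.44 and -1.37 in tumours (-3.14 ± 0.57, adjusted p = 0.000752), and Tac1, which encodes substance P, at 1.14, 2.16 and 1.36 in non-tumour tissue and -0.79, -1.13 and -1.55 in tumours (-2.71 ± 0.26, adjusted p = 3.82e-06). Enteric glia had 5 of 10 lower and 2 higher, or 0 to 1 higher with any 1 of the 6 arrays left out; Sox10, the factor of neural crest cells, fell by 1.27 ± 0.20 (adjusted p = 0.000206), and 3 glial genes were lower with median centring. Neuron calls numbered 5 without non-tumour array 1, 6 without tumour array 3 and 5 with median centring. Of 16 B and plasma cell markers 7 were lower and none higher. The B cell receptor gene Cd79a stood at 2.66, 2.40 and 1.60 in non-tumour tissue and 0.31, -0.01 and -0.42 in tumours (-2.26 ± 0.44, adjusted p = 0.00125), and Ms4a1, which encodes CD20, fell by 2.91 ± 0.62 (adjusted p = 0.0024). The part of follicles or muscle layer in the samples was not stated in the labels.

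Among myeloid cells, 7 of 16 macrophage markers were higher and 1 lower, and 9 of 19 neutrophil markers were higher and none lower. The complement gene C1qb of macrophages stood at -0.21, -0.46 and -0.66 in non-tumour tissue and 0.91, 0.74 and 0.97 in tumours and rose by 1.32 ± 0.23 (adjusted p = 0.000509), while the clearance receptor gene Mertk fell by 1.53 ± 0.22 (adjusted p = 0.000103). Csf3r, the receptor for granulocyte growth factor, and Clec4d, a lectin of neutrophils, rose by 0.89 ± 0.21 and 1.34 ± 0.28 (adjusted p = 0.00532 and adjusted p = 0.00202), each well above background on 2 of 3 non-tumour arrays. Macrophage calls numbered 3 without the arrays of bright reference, and neutrophil calls 3 without tumour array 1 and 5 without non-tumour array 1. Of the 9 neutrophil genes called, 5 were well above background on fewer than 3 non-tumour arrays; when all 6 arrays had to be, 4 of 11 were called and the median was 0.39 in place of 0.788. Mast cell markers were higher in 6 of 10, but in 1 without tumour array 3, 2 without non-tumour array 1 and 3 without non-tumour array 3. Of these 6 genes, 2 were well above background on fewer than 3 non-tumour arrays, and 1 of them on none. The arrays of 3 of the 6 did not overlap, against 93.15% of all genes called higher. The T and NK cell list had 2 of 17 higher and 3 lower, and the endothelial list 3 of 16 higher and 2 lower, with 1 higher without non-tumour array 2 or tumour array 1, where the latter turned the median from 0.0885 to -0.0216. The shares were 11.8% and 17.6% for T and NK cells and 18.8% and 12.5% for endothelium, near the 12.7% and 19.3% of all genes. Liver and pancreatic acinar lists had 1 member called in each, both lower (11.1% and 9.09%, against 19.3% of all genes).

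Some of the largest changes have not been named so far. Of these, Spp1 belongs to the list of injured and fetal gut genes and Klk1 to the goblet cell list, and both are counted there. Spp1, the matrix protein osteopontin, was at -3.49, -3.87 and -4.11 in non-tumour tissue and -1.02, 1.41 and -2.86 in tumours, with tumours far apart from each other, and changed by 3.0 ± 0.89 (adjusted p = 0.0176); the change was 1.88 with an adjusted p of 0.0926 without tumour 2, and the adjusted p was 0.0515 without non-tumour array 3. Tnfrsf11b, the decoy receptor osteoprotegerin, stood at 1.35, 3.56 and 2.38 in non-tumour tissue and 5.31, 5.0 and 6.20 in tumours, with non-tumour array 2 the nearest to the tumours, and rose by 3.07 ± 0.46 (8.4-fold, adjusted p = 0.000154). Sox17, an endoderm and endothelial factor, went from -0.99, -0.66 and -0.82 to 1.06, 2.64 and 2.41 (2.86 ± 0.34, 7.26-fold, adjusted p = 2.36e-05). Atg9b, an autophagy gene, rose from -0.55, 0.56 and 0.09 to 2.72, 3.26 and 4.15 (3.35 ± 0.35, adjusted p = 7.55e-06), well above background on 2 of 3 non-tumour arrays, and Otop1, a proton channel gene, from 0.10, 1.33 and 0.51 to 2.75, 3.68 and 3.51 (2.66 ± 0.38, adjusted p = 0.000104), likewise on 2 of 3. Gpx2-ps1, a pseudogene whose parent Gpx2 could share its probe, was at 2.55, 5.13 and 1.73 in non-tumour tissue and 5.79, 6.05 and 5.93 in tumours, with non-tumour array 2 near the tumours (2.78 ± 0.75, adjusted p = 0.0105); without non-tumour array 3 the adjusted p was 0.0567. The kallikrein gene Klk1 stood at 0.75, 0.68 and 1.26 in non-tumour tissue and -3.34, -3.52 and -5.18 in tumours (-4.91 ± 0.49, adjusted p = 4.92e-06). Klk1b3 and Klk1b4 fell by 4.42 ± 0.31 and 4.51 ± 0.40, but the 3 kallikrein genes are near copies, so their values are not those of separate genes.

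On the SJW diet the same comparison gave 2394 higher and 4022 lower genes. The diets share slides and 1 fit but no arrays of these 4 groups. Of the genes called higher on the control diet 51.1% were also higher on the SJW diet, and 70.7% the other way round; for lower genes the shares were 66% and 82.3%. Side by side, control and SJW changes were 2.48 ± 0.38 and 3.99 for Notum, 1.77 and 2.57 for Axin2, -6.01 and -4.90 for Car4, and -5.02 and -3.86 for Clca1. Mmp13 was at 3.37 and 2.73, and Id3 at 1.47 and 1.87. The chemokine gene Cxcl9 changed by 2.13 and 0.58, called on the control diet alone, and Nox1 by 1.44 and -0.02, also called on the control diet alone. Tested directly, the difference between diets called 0 genes by limma, with 1079 (4.14%) at an unadjusted p under 0.05 and a smallest adjusted p of 1, so no gene is shown to differ between the diets. Neutrophil markers numbered 9 higher on the control and 1 higher on the SJW diet, and cytokine genes 18 and 10; that difference of counts was not tested.

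**Figure D5:**
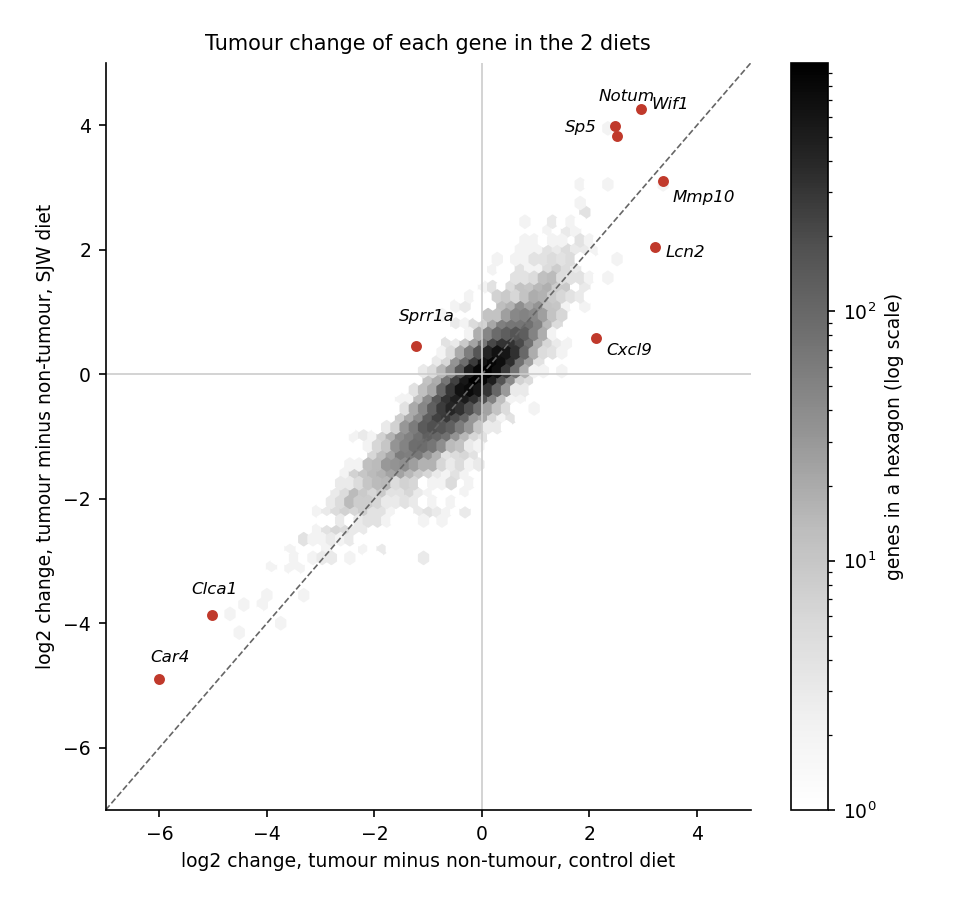
Log2 change, tumour minus non-tumour, of each of 26073 genes on the control diet (horizontal) and the SJW diet (vertical), with darker hexagons holding more genes and the dashed line marking equal change. Car4 lies at -6.01 and -4.90 and Notum at 2.48 and 3.99, and Sprr1a lies at -1.23 on the control diet and 0.46 on the SJW diet.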

How the data were processed

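RNA of 18 intestine samples in 6 groups of 3 was hybridised on 18 two-colour arrays of 45018 spots, with the sample in Cy5 and the same RNA pool in Cy3 and no dye swap, per the labels' protocols. The deposited intensities give the median pixel brightness of a spot and that of the background around it, read with Agilent Feature Extraction 10.10.1.1 per the file headers, which place the array annotation on build mm9. The deposited log10 ratio is the software's own red over green value after its background subtraction and dye normalization, per the file headers. The deposited log2 values are a table of processed ratios whose columns matched the log2 of the scanner's processed ratio (r of at least 0.9955); no source used here says how its probes were selected.

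From the intensities, background was corrected with normexp (offset 50) and within-array loess normalized the ratios, the 1639 control spots having weight 0 and spots marked as population outliers being left out (limma 3.58.1, R 4.3.3). Spots of a probe were averaged. A probe was kept when its red signal was well above background on each of the 3 arrays of at least 1 group, which left 34081 of 41174 probes, and the brightest probe stood for a gene where there were several, as for 6158 of 26073 genes. Of the probes 27050 were named through their RefSeq accession and a RefSeq gene table of GRCm38.p6, used for names alone, and 14124 had no symbol there; 16799 of the genes tested had a symbol. All 18 arrays entered 1 fit of 6 group means, which gives 12 residual degrees of freedom, and tumour minus non-tumour was tested on each diet with its difference between diets, adjusted by Benjamini-Hochberg at 0.05. The p-values measure the spread between these samples. The analysis was tested on simulated data.

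Named genes are the 12 largest called changes in each direction whose arrays do not overlap, up to 5 called members of each gene list in each direction by smallest p, all members of lists of up to 12, and a fixed set of well known genes; not all are printed, and some genes are not reported here. Tnfrsf19 was named for its promoter. The members and the gene lists were chosen with earlier results of these data known. Lists are described by counts and medians without a test. The labels do not say whether replicate numbers pair the samples. Deviations of same-numbered non-tumour and tumour arrays correlated at 0.317, -0.329 and -0.313. Those of non-tumour array 2 and tumour array 3, which share the bright reference, correlated at 0.558. With 3 arrays a group and that brightness, these values cannot decide whether the samples pair. Alternatives covered scaling, channel, offset, filters, probe choice, blocks, arrays left out and a minimum change. The reference brightness settings and the test of the reference channel alone (background-corrected, quantile normalized, same fit) were added after seeing the data.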

Additional observations from a re-analysis of the deposited data

Results flagged for a closer look

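Sprr1a, a cornified envelope gene, moved in opposite directions on the 2 diets. Its level was 1.48, 1.84 and 1.50 in non-tumour tissue and 0.76, -0.41 and 0.78 in tumours on the control diet, a change of -1.23 ± 0.30 (adjusted p = 0.00608 by limma). On the SJW diet the change was 0.46 and was not called. The difference between diets was -1.69, in a test that called no gene after adjustment.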

How the results depend on the processing

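Median centring gave 1854 lower genes, Agilent's log ratio 3246 and the deposited log2 values 2646, against 5020. Leaving out non-uniform spots gave 2037 higher genes against 3313 and 2 genes that differed between diets. A fit of the 6 arrays gave 1854 higher genes, and leaving out the arrays of bright reference 1906. A test for a change of more than 2-fold left 24 higher and 275 lower genes. Leaving out 1 array gave 2347 to 3363 higher and 3822 to 4983 lower genes, and 0 or 1 genes that differed between diets. With the replicate number as a block 3145 genes were higher and 4863 lower. The labels do not say whether the numbers pair the samples. Changes turned sign for Hoxa13 (-1.20) in the red channel alone, and for Hoxa13 (-0.11) and Hoxd9 (-0.054) with the mean of all probes of a gene; the cause was not tested.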

Other observations

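Of the 8333 called genes, 450 (5.4%) had a reference channel called the opposite way, 173 of them called higher with the reference lower and 277 called lower with the reference higher. In the red channel alone 5196 of the called genes (62.4%) were called in the same direction. At least 2-fold changes were found for 737 genes in the reference channel and for 3372 in the red channel. Among genes named above, the reference channel was also called higher for Hao2 (0.48), Klk1b4 (0.74), Ier3 (0.67), Cox6c (0.40) and Vip (0.46). Their red channel alone changed by -3.91, -3.75, 1.98, -0.83 and -2.20 in that order. The pool is the same RNA on every array, and what moved its channel between the scan days was not tested.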
